A study of Mus musculus with 6 samples.

Results

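The 38 genes described here encode lysosomal proteases, other lysosomal hydrolases and their cofactors, lysosomal membrane proteins and the proton pump that acidifies the organelle. They were taken by name from the 19848 genes of the deposited RNA table. By role they comprised 10 genes for cathepsins, legumain and cystatin C, 11 for other hydrolases and cofactors, 8 for membrane proteins, 8 for V-ATPase subunits and accessory proteins, and 1 regulator, Tfeb. The samples were immune cells enriched on Percoll from whole brains of 24 naïve female C57BL/6 mice, measured by CITE-seq, a method that records the transcripts of single cells together with tags of bound antibodies. There were 4 groups with 6 mice each: 12-week-old mice given vehicle, 12-week-old mice given antibiotics, 72-week-old mice given vehicle and 72-week-old mice given antibiotics. Vehicle left the gut microbiota unperturbed and antibiotics depleted it. The labels do not name the antibiotics. Every group shared the same sex, strain, PBS perfusion and papain dissociation. Brains were processed singly and then collapsed into 12 pools, 3 per group, each marked with a hashtag antibody. Hereafter the 12-week groups are called young and the 72-week groups aged, as in the labels, and vehicle is called control.

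Lysosomes are acidic organelles in which cells break down what they have taken up by endocytosis and phagocytosis, and their own worn components by autophagy. The vacuolar H+-ATPase (V-ATPase) pumps protons into the lumen, and its low pH activates cathepsins and the hydrolases of lipids, glycans and glycogen. Transcription factor EB, encoded by Tfeb, binds a palindromic E-box element in the promoters of many lysosomal genes and raises their expression together. Microglia, the resident macrophages of the brain parenchyma, and the macrophages at its borders are phagocytes that rely on this pathway to clear synapses, myelin and dead cells.

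The table held 13052 cells, between 760 and 1590 per pool, with 5745242 to 13742781 raw UMIs per pool. A UMI is a molecular tag that counts 1 captured RNA molecule. Values here are the authors' SCT values, UMI counts adjusted by a regression model toward a common depth per cell, averaged within each pool over all cells of 1 type. Reads came from 3′ tags, so levels were compared between cell types or groups within a gene and not between genes. Young and aged pools were loaded in separate wells, so age and well cannot be told apart, and hashtags 1 to 3 marked control and 4 to 6 antibiotic pools in both wells, so hashtag and arm cannot be told apart either. The wells had 59 cell barcodes in common. Microglia made up 9403 cells (72.0%), with 475 to 1186 per pool. The authors' cell type names matched their defining markers for microglia, BAM (macrophages with markers of the brain borders), Ly6C+Ly6G+, B and CD8+ cells. Monocyte markers were highest in Ly6CHigh cells at 56.6 (28.3 to 88.9 over pools), with overlap with Ly6C+Ly6G+ cells at 36.7 (8.7 to 86.2). Neutrophil markers summed to 128 (0.929 to 287) in Ly6CHigh cells, against 2097 in Ly6C+Ly6G+ cells. Markers fixed for Ly6CLow cells summed to 8.30 there but also to 8.53 in Ly6C+Ly6G+ and 7.61 in Ly6CHigh cells, and the CD4+ list reached 3.95 in CD4+ and 3.25 in CD8+ cells. The cells called ILCs carried natural killer markers at 15.8 and innate lymphoid markers at 6.42. Among Ly6CHigh cells, 45.3% with vehicle and 59.6% with antibiotics in aged mice had under 2000 raw UMIs, against 1.23% and 1.64% in the young groups. Among Ly6CLow cells these shares were 32.1% and 31.1% against 4.70% and 4.00%. The members' age results in those 2 types are therefore given with and without such cells. For antibiotics 0 members passed in either type with or without them.

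Promoters were examined because TFEB binds an E-box element in the promoters of many lysosomal genes. Most member windows held no such element. RefSeq windows of 300 bases around the transcription start (250 before, 50 after; build GRCm38.p6) were found for 34 members, with 41 windows in all, and Ctsb, Ctsh, Npc1 and Atp6v1h had no entry. The core E-box CACGTG was present in 12 of the 41 windows (29.3%), compared with 2349 of the 32851 windows of all genes (7.15%). The longer TCACGTGA, which contains the core, was present in 6 member windows (14.6%) and in 0.974% of all windows. The still longer TCACGTGAC was present in 4 member windows (9.76%) and in 0.782% of all windows. All were searched on both strands, and the shorter motifs count every window of the longer ones. The 6 members with TCACGTGA were Ctsa, Ctsd, Mcoln1, Atp6v0d1, Atp6v0e and Atp6v1a, and those with only the core were Ctsl, Lgmn, Gaa, Glb1, Lamp1 and Atp6v0b. Letters in a window are a description and show no binding.

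4 promoters are printed because they place the element in a protease (Ctsd), a protease that also protects other hydrolases (Ctsa), a lysosomal calcium channel (Mcoln1) and a pump subunit (Atp6v1a). Each is the 250 bases before the start, 5′ to 3′ on the gene's strand, and the capitals mark the longest match on either strand. Ctsd lies on the minus strand at chr7:142387828-142388077, with the match beginning 99 bases before the start. Ctsa lies on the plus strand at chr2:164833523-164833772, with the match 14 bases before the start. Mcoln1 lies on the plus strand at chr8:3500269-3500518, with the match 46 bases before the start. Atp6v1a lies on the minus strand at chr16:44139260-44139509, with the match 132 bases before the start.
Ctsd: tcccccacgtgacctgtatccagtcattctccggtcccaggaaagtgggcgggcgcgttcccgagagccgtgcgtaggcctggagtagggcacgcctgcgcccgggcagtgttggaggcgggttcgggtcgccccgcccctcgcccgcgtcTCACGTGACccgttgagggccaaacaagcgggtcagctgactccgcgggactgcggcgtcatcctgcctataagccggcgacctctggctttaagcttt
Ctsa: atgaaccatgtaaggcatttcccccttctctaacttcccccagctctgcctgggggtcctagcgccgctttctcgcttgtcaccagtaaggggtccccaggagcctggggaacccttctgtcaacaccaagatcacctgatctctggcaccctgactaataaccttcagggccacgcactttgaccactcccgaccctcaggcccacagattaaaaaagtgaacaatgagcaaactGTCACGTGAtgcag
Mcoln1: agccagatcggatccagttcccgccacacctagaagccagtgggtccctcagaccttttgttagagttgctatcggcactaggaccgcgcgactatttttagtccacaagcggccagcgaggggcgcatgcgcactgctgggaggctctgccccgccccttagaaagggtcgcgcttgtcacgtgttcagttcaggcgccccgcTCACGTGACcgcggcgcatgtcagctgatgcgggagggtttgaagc
Atp6v1a: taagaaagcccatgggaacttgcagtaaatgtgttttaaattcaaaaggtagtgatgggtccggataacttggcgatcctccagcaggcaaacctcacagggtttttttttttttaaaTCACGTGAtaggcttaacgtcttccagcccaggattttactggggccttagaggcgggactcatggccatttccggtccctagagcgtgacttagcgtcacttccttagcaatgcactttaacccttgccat

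Across cell types, most members had their highest mean in the brain macrophages, though often with overlap between the 2 highest types. Microglia had the highest mean level of 20 members and BAM of 10, while Ly6CHigh cells led for 5 and Ly6CLow, Ly6C+Ly6G+ and CD4+ cells for 1 each. The pool ranges of the 2 highest types did not overlap for 7 of the 20 members and 2 of the 10, and overlapped for all others. The shares of all genes highest in each type, and with separate ranges, were not computed. These counts therefore do not set the members apart from other genes. NK cells were too few for a level, since no pool held 10 of them. The authors defined the types from these same cells, so the levels are a description and carry no test. Neighbours in the order of types are called separate only where their ranges over pools did not overlap.

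**Figure D1:**
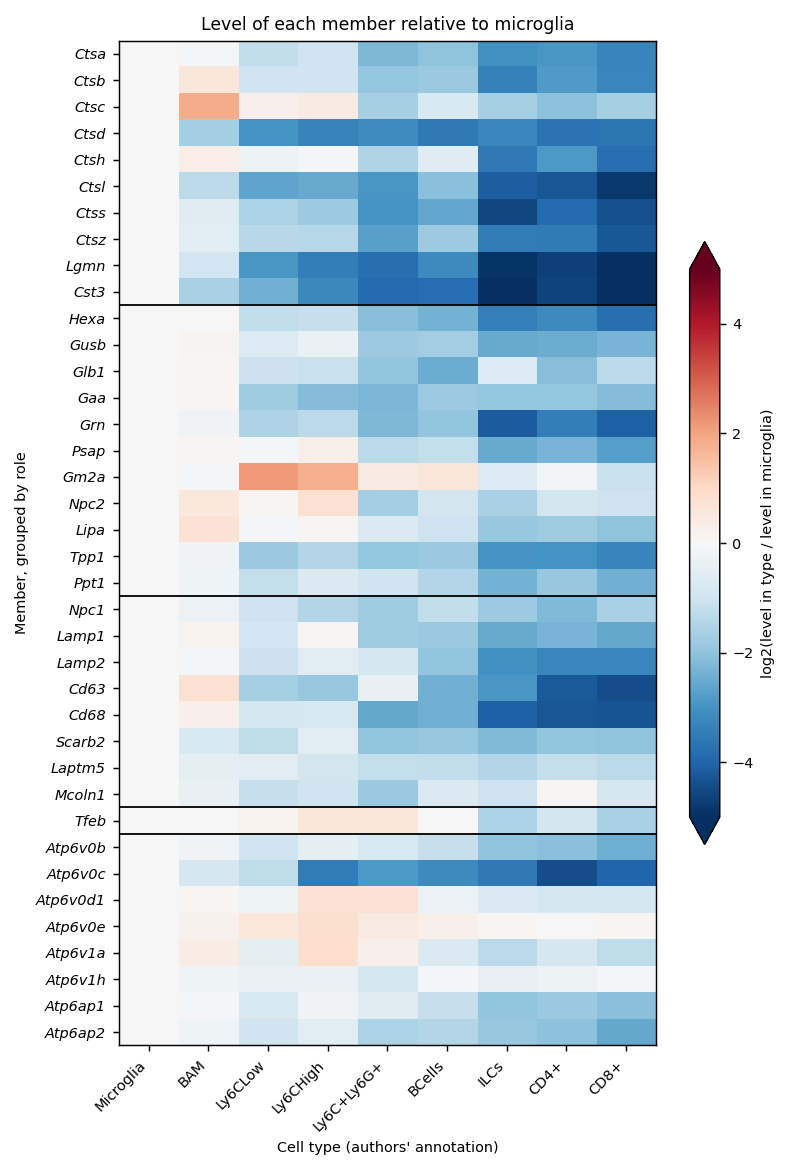
Mean SCT value of each of the 38 members (rows, grouped by role) in each of the 9 cell types (columns), coloured by its log2 ratio to the level in microglia, from blue (lower) to red (higher); ratios past either end of the colour bar take its end colour. Microglia hold the highest mean of 20 members and BAM of 10, and the pool ranges of the 2 highest types were separate for 7 and 2 of these. The shares of all genes were not computed.

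The cathepsins, legumain and cystatin C differed most between types by the ratio of the highest to the lowest type, which had a median of 18.5 over these 10 genes. Ctsd encodes the aspartic protease cathepsin D and averaged 47.3 ± 1.11 (SD, n = 12 pools) in microglia against 14.4 ± 3.46 in BAM, and it lay between 3.67 and 5.99 in the other 7 types. Cst3, the secreted cysteine protease inhibitor cystatin C, averaged 260 ± 22.5 in microglia, 83.8 ± 21.3 in BAM and 49.3 in Ly6CLow cells. Both genes had microglial pools wholly above the BAM pools. The cysteine proteases Ctss (34.7 against 22.9 in BAM), Ctsl (8.42 against 3.42), Ctsz (11.1 against 7.72) and the asparaginyl endopeptidase Lgmn (20.5 against 10.4) had the same order with no overlap between those types. Ctsc, the dipeptidyl peptidase that activates serine proteases of granules, had another order: BAM 8.83 ± 0.949, then Ly6CHigh 3.26, Ly6CLow 2.87 and microglia 2.43. The aminopeptidase Ctsh was also highest in BAM, at 6.05 against 4.76 in microglia, with separate ranges. Ctsb averaged 13.7 in BAM and 9.30 in microglia, with overlapping ranges, and both lay above the 4.68 of Ly6CLow cells. Ctsa differed little between microglia (3.85) and BAM (3.57), and the ranges of those types overlapped.

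**Figure D2:**
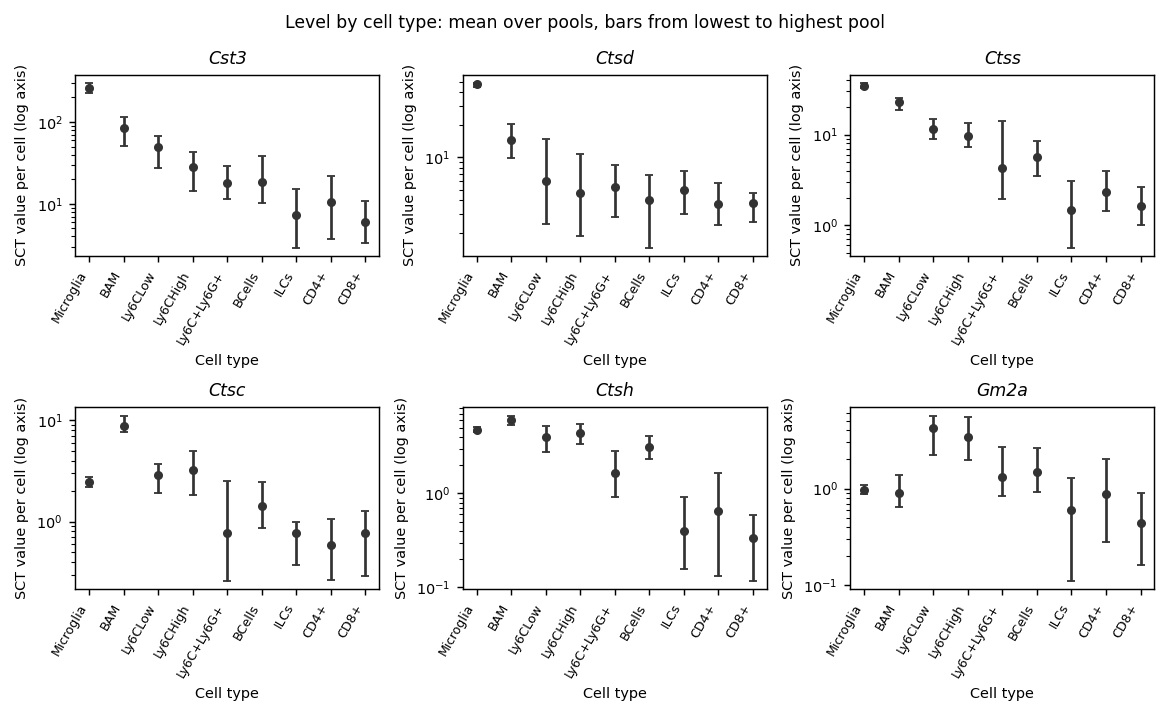
Mean SCT value per cell for Cst3, Ctsd, Ctss, Ctsc, Ctsh and Gm2a in each cell type on a log axis; points are means over pools and bars run from the lowest to the highest pool. Cst3, Ctsd and Ctss are highest in microglia, Ctsc and Ctsh in BAM, and Gm2a in Ly6CLow cells at 4.21 against 0.965 in microglia.

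The other hydrolases and cofactors were mostly shared between microglia and BAM. Hexa, a subunit of the hexosaminidase that degrades GM2 ganglioside, averaged 3.55 in microglia and 3.53 in BAM, and Gusb, the beta-glucuronidase, 1.40 and 1.55. Grn, the precursor of progranulin, averaged 6.12 and 5.38, Tpp1, a tripeptidyl peptidase, 1.22 and 1.08, and Ppt1, a palmitoyl-protein thioesterase, 1.10 and 0.951. The ranges of microglia and BAM overlapped for all of these. Glb1, the beta-galactosidase (0.330 and 0.351), and Gaa, the glycogen-degrading glucosidase (0.411 and 0.444), were low in every type. Gm2a, the activator protein that presents GM2 ganglioside to hexosaminidase, was highest outside the brain macrophages: Ly6CLow 4.21 and Ly6CHigh 3.43, against 0.965 in microglia and 0.892 in BAM. Psap, the precursor of the saposins, averaged 14.5 in Ly6CHigh, 12.9 in BAM, 12.0 in microglia and 11.4 in Ly6CLow cells, with overlap between each neighbour. Npc2, which carries cholesterol within the lumen, was 7.58 in Ly6CHigh and 6.55 in BAM cells, and Lipa, the lysosomal acid lipase, was 0.727 in BAM and 0.445 in microglia.

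Membrane proteins divided between the macrophage types. Laptm5 averaged 9.95 in microglia and 7.28 in BAM with separate ranges, and kept between 3.65 and 4.40 in the lymphoid types and Ly6C+Ly6G+ cells. Cd63, a tetraspanin of late endosomes and lysosomes, averaged 6.03 in BAM, 3.58 in microglia and 2.74 in Ly6C+Ly6G+ cells, and 0.164 in CD8+ cells. Cd68, the macrophage scavenger receptor-like glycoprotein, was 3.68 in BAM and 3.13 in microglia. The structural glycoproteins Lamp1 (5.93 in microglia, 6.73 in BAM) and Lamp2 (3.15 and 2.96) overlapped between those types. Npc1, the cholesterol exporter that receives its cargo from NPC2, was 0.545 in microglia and 0.444 in BAM, and Scarb2, the receptor that carries glucocerebrosidase to lysosomes, was 0.993 and 0.593. Mcoln1 lay between 0.0366 and 0.138 in all 9 types, and Tfeb between 0.0621 and 0.287, with overlapping ranges from one type to the next.

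For the 8 proton pump genes the ratio of the highest to the lowest type had a median of 4.46, compared with 5.66 for the membrane proteins and 6.65 for the other hydrolases. Atp6v0e, a small subunit of the membrane domain, was lowest in microglia (1.52) and highest in Ly6CHigh cells (2.64), and every neighbouring pair of types overlapped. Atp6v1a, the catalytic subunit that hydrolyses ATP, averaged 0.743 in Ly6CHigh, 0.531 in BAM and 0.412 in microglia. Atp6v0d1, which joins the stalk to the membrane domain, was 0.864 in Ly6C+Ly6G+ and 0.863 in Ly6CHigh cells against 0.530 in microglia. Atp6v1h, a regulatory subunit of the catalytic domain, lay between 0.204 and 0.369 in all types. Atp6v0b was 4.53 in microglia and 3.99 in BAM, and the accessory genes Atp6ap1 (1.03 and 0.979) and Atp6ap2 (1.55 and 1.35) followed the same overlapping order. Atp6v0c, the proteolipid of the rotor ring, was listed at only 0.109 in microglia, and its pseudogenes in the table make its counts uncertain, as does a pseudogene of Cd63.

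Free RNA from lysed microglia can enter the droplets of other cells, so levels in the other types were set beside 7 genes used as microglial markers. Whether other types make some of these markers themselves was not tested. In CD8+ cells the 7 microglial markers stood at 1.99% to 2.95% of their microglial level. 36 members lay above that range in CD8+ cells, and the median member stood at 17.7% of its microglial level. Lgmn and Cst3 were not above it. The share of all genes above the range was not computed, and the part of free RNA in any of these levels was not tested. In B cells, where the markers reached 6.39% to 23.9%, 10 members were not above the range, among them Ctsd, Ctsl, Ctss, Lgmn and Cst3. In ILCs, Ctss, Lgmn and Cst3 were not above the marker range of 3.28% to 5.53%. In CD4+ cells Ctsl, Lgmn, Cst3, Cd68 and Atp6v0c were not above 2.73% to 5.30%. In Ly6C+Ly6G+ cells Lgmn and Cst3 were not above 5.29% to 7.90%. In Ly6CHigh cells Ctsd, Lgmn, Cst3 and Atp6v0c were not above the marker range of 5.55% to 12.3%. In Ly6CLow cells Ctsd and Lgmn were not above 4.82% to 14.96%. In BAM, Ctsd, Ctsl and Cst3 lay within the marker range of 19.1% to 42.4%.

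Antibiotic treatment was compared with vehicle in microglia first, with limma across the 8759 genes of sufficient level and Benjamini-Hochberg adjustment over all of them. Averaged over both ages, 4 of the 38 members passed: Ctsc, Lipa and Hexa fell and Npc1 rose after antibiotics. This was 10.5% of the members, while 5.40% of all genes tested passed (473 genes). The median member differed by -0.02 on the log2(value + 0.05) scale used for all changes here, and the median of all genes by -0.01. 26 members had negative and 12 positive estimates. The p-values measure the spread between pools of mice, and the labels do not say which mice went into which pool.

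Ctsc had the smallest p. Its level in young control pools 1 to 3 was 2.61, 2.61 and 2.73, and in young antibiotic pools 2.32, 2.28 and 2.23. In aged control pools it was 2.66, 2.62 and 2.41, and in aged antibiotic pools 2.31, 2.19 and 2.24. At each age every antibiotic pool lay below every control pool, and the change averaged -0.20 ± 0.0393 (SE) on the log2 scale (limma, adjusted p = 0.00594). The call held in all 21 alternative analyses. Hexa was 3.52, 3.65 and 3.83 in young control pools against 3.31, 3.19 and 3.38 with antibiotics, and 3.87, 3.77 and 3.79 in aged control pools against 3.36, 3.41 and 3.50. The arms were again separate at both ages, with a change of -0.15 ± 0.0383 (limma, adjusted p = 0.0251). Leaving out any 1 of 6 pools ended the Hexa call (young control 3, young antibiotic 1 or 2, aged control 1 or 2, aged antibiotic 2; adjusted p 0.0519 to 0.0767), as did a fit without the variance trend (0.0708).

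Lipa was 0.439, 0.518 and 0.456 in young control pools and 0.399, 0.398 and 0.411 in young antibiotic pools. In aged mice it was 0.484, 0.504 and 0.485 in control pools and 0.425, 0.375 and 0.442 with antibiotics. No antibiotic pool reached a control pool of its age, and the change was -0.21 ± 0.0514 (limma, adjusted p = 0.0218). The Lipa call ended without young control 2, aged control 2 or aged antibiotic 2 (adjusted p 0.0549 to 0.0625), and also with no filter on low genes or in cells between the 25th and 75th percentiles of raw UMIs (0.0580 to 0.0844). Npc1 went the other way. It was 0.445, 0.448 and 0.526 in young control pools and 0.599, 0.586 and 0.571 with antibiotics, with no overlap. In aged mice the arms overlapped, at 0.558, 0.496 and 0.554 in control and 0.548, 0.637 and 0.577 in antibiotic pools. The mean change of Npc1 over the ages was 0.20 ± 0.0528 (limma, adjusted p = 0.0307), and it lost the threshold without young control 1 or 2, young antibiotic 1 or 2, aged control 2 or aged antibiotic 2 (adjusted p 0.0553 to 0.0864), with no filter or without the variance trend (0.0594 to 0.0852). Lipa and Npc1 both act on cholesterol delivered to the lysosome, Lipa by freeing it from esters and Npc1 by exporting it.

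2 pump genes had separate arms in the same direction at both ages without passing. Atp6v1h was 0.358, 0.339 and 0.329 in young control against 0.378, 0.368 and 0.367 in young antibiotic pools, and 0.352, 0.354 and 0.352 in aged control against 0.422, 0.414 and 0.400 in aged antibiotic pools, a difference of 0.15 (limma, adjusted p = 0.0538). Atp6v0b was 4.67, 4.73 and 4.60 against 4.44, 4.56 and 4.48 in young mice, and 4.99, 4.94 and 4.53 against 4.41, 3.98 and 4.02 in aged mice, a difference of -0.14 (limma, adjusted p = 0.0621). So Atp6v1h was higher and Atp6v0b lower in antibiotic pools, each by less than the test required. The catalytic subunit Atp6v1a also had separate arms at both ages, but below control in young and above control in aged mice. Of the 8 pump genes, 4 had positive and 4 negative estimates over both ages. In microglia of at least 2000 raw UMIs, a limit chosen after seeing the data, both passed: Atp6v1h at 0.15 (limma, adjusted p = 0.0436) and Atp6v0b at -0.16 (0.0250). 6 members passed there in all, against 711 of 8833 genes.

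**Figure D3:**
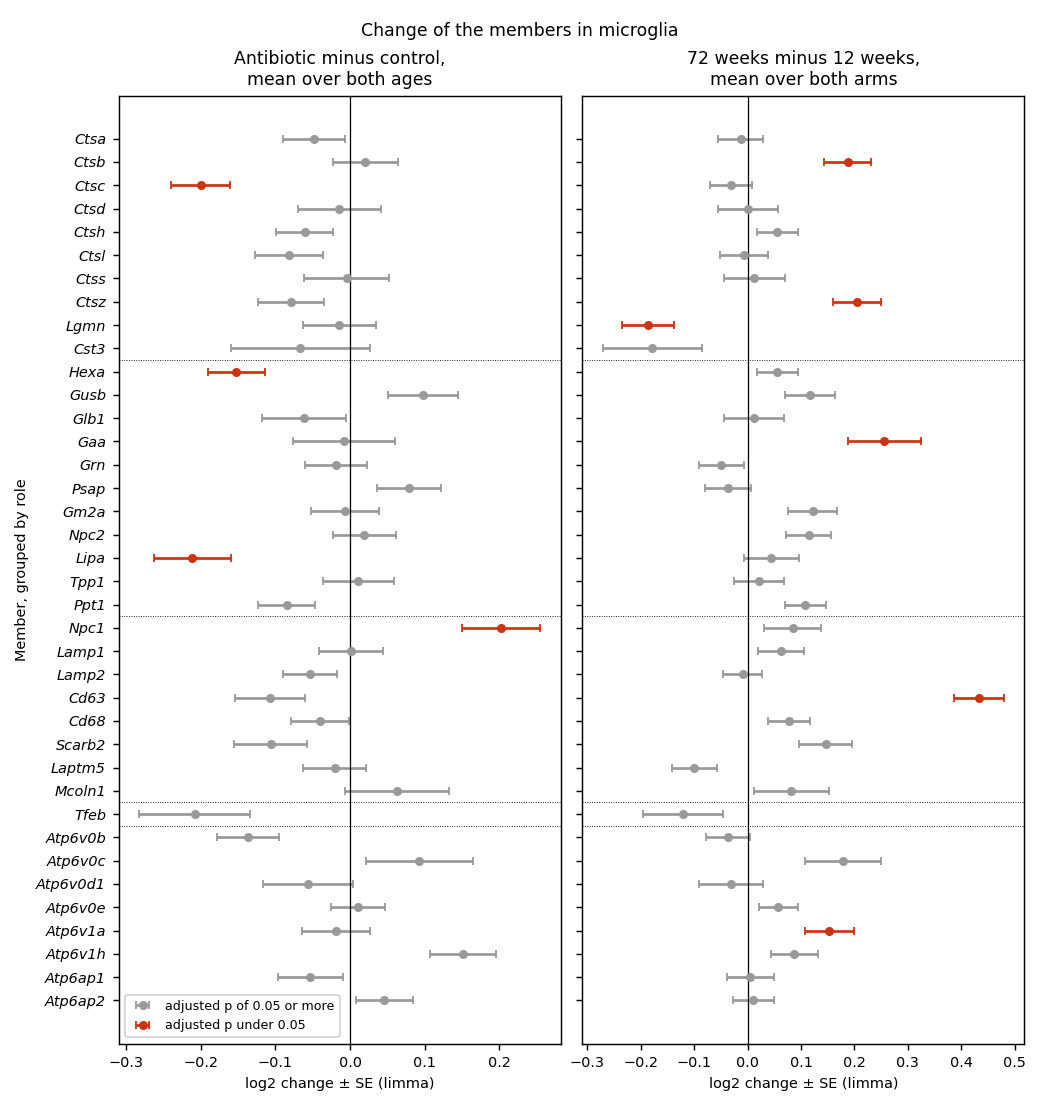
Change of each of the 38 members in microglia on the log2(value + 0.05) scale, for antibiotic minus control and for aged minus young, each averaged over the other factor; bars are standard errors and red points passed the adjusted threshold of 0.05. Ctsc, Hexa and Lipa lie below 0 and Npc1 above it for antibiotics, and Cd63 stands out for age at 0.43.

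Within single ages fewer members passed. In young microglia 0 of 38 members passed (limma), and 0.137% of all genes passed. Unadjusted, 6 of 38 members had a p under the 0.05 threshold, against 10.6% of all genes. The smallest p-values there were those of Ctsc (-0.21, adjusted p = 0.138), Npc1 (0.28, 0.144), Hexa (-0.15, 0.302), Lipa (-0.20, 0.312), Tfeb (-0.26, 0.377) and Ctsl (-0.14, 0.460), none of which passed limma's threshold. In aged microglia Atp6v0b alone passed, at -0.22 ± 0.0588 (limma, adjusted p = 0.0493), while 3.23% of all genes passed. That call ended on leaving out any of 10 pools, all except aged control 3 and aged antibiotic 1 (adjusted p 0.0534 to 0.169). Ctsc (-0.19, limma adjusted p = 0.0716), Atp6v1h (0.20, 0.0849), Gusb (0.21, 0.0858), Lipa (-0.22, 0.0926) and Hexa (-0.15, 0.124) came next without passing.

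The difference between the antibiotic changes at the 2 ages was tested as an interaction. 0 of 38 members passed (limma), as did 0% of all genes. Unadjusted, 2 of 38 members had a p under the threshold, against 6.61% of all genes. The smallest p-values belonged to Gusb (0.22 higher at 72 weeks, adjusted p = 0.687), Atp6v1a (0.21, 0.696), Atp6v0b (-0.16, 0.783), Gaa (0.24, 0.818), Atp6v0c (-0.23, 0.841) and Npc1 (-0.16, 0.849), again by limma. The changes at the 2 ages came from separate pools, and 25 of 38 members (65.8%) had the same sign at both, against 63.6% of all genes. Markers of other cells moved within the microglial pools: summed neutrophil markers averaged 4.86 without and 11.1 with antibiotics in young mice, and 0.661 without and 2.02 with them in aged mice. The 7 microglial markers summed to 63.3, 60.3, 60.6 and 54.7 in the same order. Their part in the member changes was not tested.

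Age gave more calls than antibiotics. Averaged over both arms, 6 of 38 members (15.8%) differed between aged and young microglia, against 9.86% of all genes: Cd63, Ctsz, Ctsb, Gaa and Atp6v1a rose and Lgmn fell. 26 members had positive and 12 negative estimates, with a median of 0.05 against 0.02 for all genes. Ctsd, whose microglial pools lay wholly above those of BAM, differed by 0.00 (limma, adjusted p = 0.997).

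Cd63 changed most. Young control pools had 3.09, 3.19 and 3.15 and young antibiotic pools 2.85, 2.96 and 2.94. Aged control pools had 3.91, 4.78 and 4.16 and aged antibiotic pools 3.74, 4.13 and 3.99. Every aged pool was above every young pool, and the rise was 0.43 ± 0.0474 (limma, adjusted p = 5.98e-06), with the call kept in all 21 alternatives. The protease Ctsz was 10.5, 10.8 and 10.7 in young control and 9.84, 9.89 and 10.0 in young antibiotic pools, against 11.8, 12.7 and 11.8 in aged control and 10.9, 12.3 and 11.9 in aged antibiotic pools. Ctsb was 8.84, 8.79 and 8.76 and then 8.36, 8.63 and 8.76 in the young arms, against 9.30, 10.0 and 9.60 and then 9.62, 10.0 and 10.9 in the aged arms. For both proteases all 6 aged pools exceeded all 6 young pools. The rise was 0.20 ± 0.0448 for Ctsz (limma, adjusted p = 0.00546) and 0.19 ± 0.0440 for Ctsb (adjusted p = 0.00927). When the logarithm was taken in each cell before averaging, neither passed (adjusted p 0.0959 and 0.137).

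That same averaging called Cst3. Its levels were 269, 263 and 302 then 277, 259 and 287 in the young arms, and 249, 247 and 266 then 226, 227 and 250 in the aged arms. The ages overlapped in the control arm only. Cst3 differed by -0.18 (limma, adjusted p = 0.272) in the fit used throughout. With logarithms per cell it differed by -0.31 (limma, adjusted p = 5.45e-06), and passed in the control (-0.25, 0.0154) and antibiotic arms (-0.37, 0.000139) too. Logarithms per cell give more weight to low cells. The 10th percentile of Cst3 was 71.2 and 74 in the young and 29 and 26 in the aged control and antibiotic groups. Cells under 2000 raw UMIs were 9.35% and 8.30% of young and 12.3% and 14.6% of aged microglia. In microglia of at least 2000 raw UMIs only the fit used throughout was run, and Cst3 did not pass there. That fit did not call Cst3 with all cells either, so it cannot show how shallow cells bear on the call. The part of depth was not tested.

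Lgmn was the only member that passed in this fit with a lower level in aged mice. It stood at 21.6, 22.9 and 22.4 in young control and 20.8, 21.3 and 21.8 in young antibiotic pools, and at 19.3, 19.3 and 18.2 in aged control and 19.1, 18.6 and 20.5 in aged antibiotic pools. No aged pool reached a young pool, and the change was -0.19 ± 0.0487 (limma, adjusted p = 0.0194). It was -0.09 (adjusted p = 0.294) in cells between the 25th and 75th percentiles of raw UMIs, and the call also ended without young antibiotic 3, aged control 3 or aged antibiotic 2 (0.0526 to 0.0594) or with no filter (0.0623). Gaa was 0.405, 0.367 and 0.390 in young control and 0.301, 0.371 and 0.383 in young antibiotic pools, and 0.401, 0.519 and 0.381 in aged control and 0.454, 0.453 and 0.501 in aged antibiotic pools. The ages of Gaa overlapped in the control arm and not in the antibiotic arm. The rise was 0.26 ± 0.0687 (limma, adjusted p = 0.0224), and it missed the threshold without young control 2, young antibiotic 1, aged control 2 or aged antibiotic 3 (0.0545 to 0.0606) or with no filter (0.0812).

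Atp6v1a, the pump's catalytic subunit, was 0.398, 0.408 and 0.414 in young control and 0.342, 0.377 and 0.388 in young antibiotic pools, and 0.409, 0.435 and 0.421 in aged control and 0.465, 0.443 and 0.446 in aged antibiotic pools. The ages overlapped in the control arm only. Its rise was 0.15 ± 0.0458 (limma, adjusted p = 0.0409), and leaving out any pool except young antibiotic 3 ended the call (adjusted p 0.0535 to 0.103). Logarithms taken per cell, the 25th to 75th percentiles of raw UMIs and a fit without the trend ended it as well (0.0531 to 0.142).

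**Figure D4:**
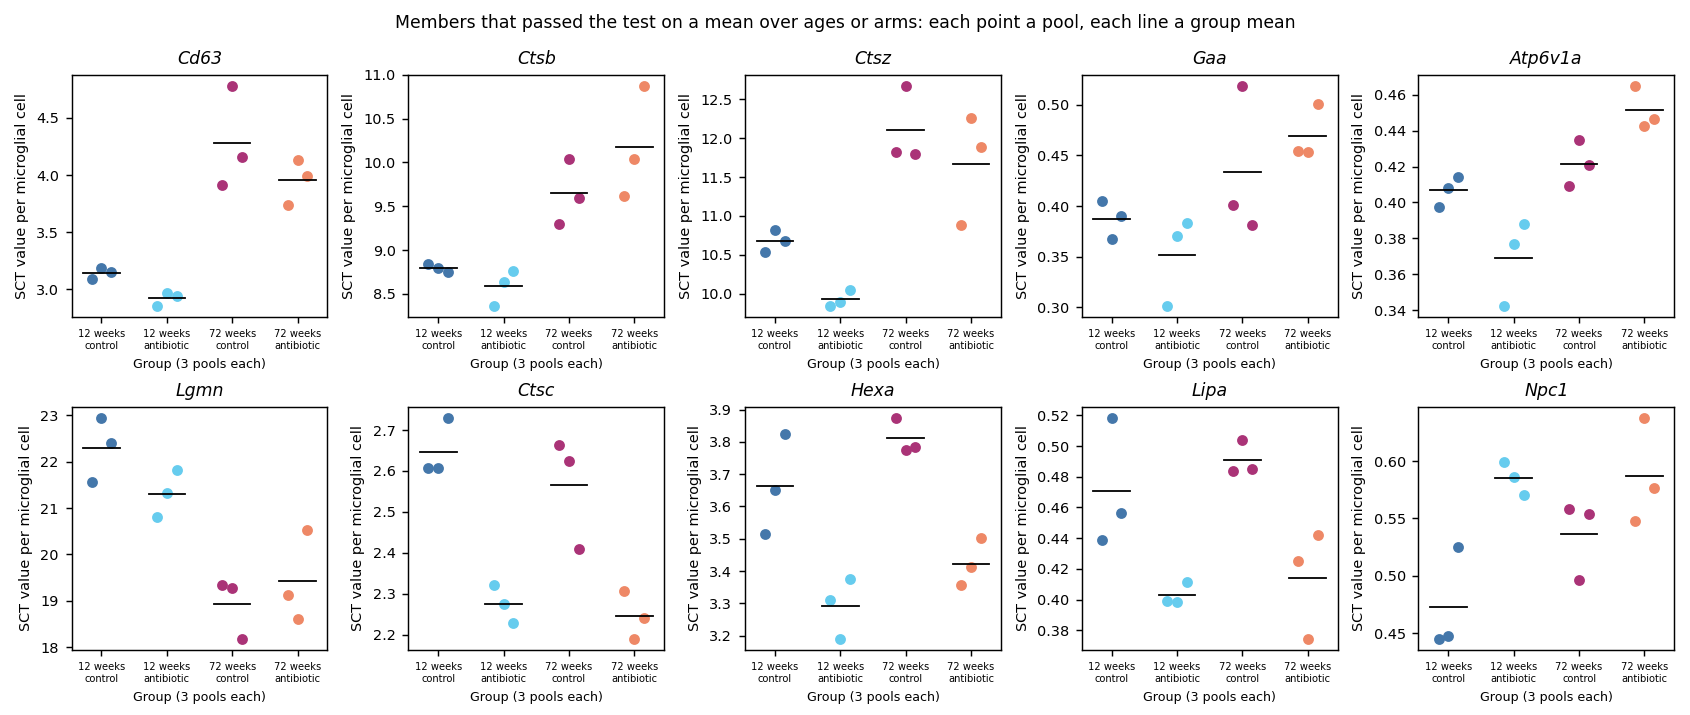
Mean SCT value per microglial cell in each of the 12 pools for the 10 members called in a main comparison, 1 point per pool, by group, with lines at the group means. Aged pools lie above young pools for Cd63, Ctsz and Ctsb, and antibiotic pools lie below the control pools of their age for Ctsc, Hexa and Lipa.

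In the control arm alone, Cd63 was the 1 member that passed for age (0.44 ± 0.0671, limma, adjusted p = 0.000791), against 2.66% of all genes, and leaving out no pool ended it. Lgmn (-0.24, adjusted p = 0.0858), Atp6v0c (0.29, 0.173), Ctsz (0.18, 0.187), Scarb2 (0.17, 0.285) and Npc1 (0.17, 0.345) followed without passing limma's threshold. In the antibiotic arm 6 members passed and all rose, against 6.15% of all genes: Cd63 (0.43, limma adjusted p = 0.000520), Atp6v1a (0.26, 0.0208), Ctsb (0.24, 0.0243), Gaa (0.38, 0.0250), Ctsz (0.23, 0.0353) and Gusb (0.23, 0.0476). Gusb was 1.35, 1.34 and 1.31 in young and 1.55, 1.73 and 1.45 in aged antibiotic pools, which did not overlap. Apart from Cd63, each of these calls was lost when a pool was left out. Atp6v1a was lost without young antibiotic 1 or aged antibiotic 1 or 2 (limma adjusted p 0.0565 to 0.103), and Gaa without young antibiotic 1 or aged antibiotic 2 or 3 (0.0594 to 0.126). Ctsb was lost without any young antibiotic pool or aged antibiotic 2 or 3 (0.0564 to 0.0959), and Ctsz without those or young control 1 (0.0525 to 0.151). Gusb was lost without any pool but aged control 3 and aged antibiotic 3 (0.0501 to 0.229). The arms have separate pools, and 31 of 38 members (81.6%) had age estimates of the same sign in both, against 62.4% of all genes. Whether age acts differently in the arms is the interaction tested above, which no member passed.

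With only microglia of at least 2000 raw UMIs, 13 members passed for age instead of 6, while 1153 of 8833 genes passed instead of 864 of 8759. Ppt1, Scarb2, Gm2a, Cd68, Npc2, Atp6v0c and Npc1 joined the 6 above, all higher in aged pools. Summed markers of dissociation stress were 202 and 204 in the young and 174 and 184 in the aged groups of microglia, and B cell markers 0.402 and 0.378 against 1.13 and 1.10. Their part in the age changes was not tested.

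Other lysosomal genes, 67 of a list of 76 that had enough signal in microglia, gave the surroundings of these changes. Averaged over the arms, 7 rose with age and 2 fell, which was 13.4% of the 67 against 9.86% of all genes. Cst7, the endosomal inhibitor cystatin F, rose most, by 1.31 (limma, adjusted p = 2.00e-08). In young mice its pools were 0.0412, 0.0492 and 0.0541 with vehicle and 0.0497, 0.0355 and 0.0270 with antibiotics. In aged mice they were 0.172, 0.145 and 0.130 with vehicle and 0.260, 0.228 and 0.164 with antibiotics, so that the ages did not overlap. Most young pools lay below the added 0.05, so the fitted size of the Cst7 change depends on it. The galactocerebrosidase Galc rose by 0.31, the iduronidase Idua by 0.25 and the transporter Abca2 by 0.25, while the arylsulfatase Arsb differed by -0.49 (adjusted p = 9.83e-06). In the control arm 2 rose and 1 fell (4.48%, against 2.66% of all genes). In the antibiotic arm 5 rose and 1 fell (8.96%, against 6.15% of all genes). For antibiotics averaged over the ages, Sidt2 rose (0.18, limma adjusted p = 0.0452) and the phospholipase Pla2g15 fell (-0.17, 0.0300). These were 2.99% of the 67, against 5.40% of all genes. None passed for antibiotics at a single age by limma. Unadjusted, 6 of 67 genes in young and 9 in aged microglia had a p under the threshold, against 10.6% and 18.4% of all genes.

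BAM showed no call among the members. For antibiotics 0 of 38 passed (limma, 0.0559% of all genes passed), and for age 0 of 38 (0.145% of all genes). Unadjusted, 3 of 38 members had a p under the threshold for antibiotics (7.03% of all genes) and 2 of 38 for age (8.11%). Cst3 had the smallest p in both. In young mice its pools were 73.3, 107 and 109 with vehicle and 71.1, 88.1 and 114 with antibiotics. In aged mice they were 103, 74.8 and 89.4 with vehicle and 54.5, 50.8 and 70.8 with antibiotics. The aged antibiotic pools lay below all others, and the mean differences were -0.34 for antibiotics (limma, adjusted p = 0.606) and -0.36 for age (0.415). When the logarithm was taken in each cell before averaging, Cst3 was the only member that passed for age in BAM (-0.39, limma adjusted p = 0.0221). Of all genes, 25 passed with that averaging. Summed microglial markers in BAM were 20.7 without and 19.5 with antibiotics in young mice, and 24.4 without and 10.97 with them in aged mice, so they too were lowest in aged antibiotic pools. Their part was not tested. Atp6ap1 (0.46), Glb1 (0.44), Tfeb (-0.45), Atp6v0b (-0.20) and Ctss (-0.16) followed for antibiotics with limma adjusted p of 0.669 to 0.773. Cd63 (0.27), Scarb2 (0.29), Tfeb (-0.37), Atp6v0b (-0.17) and Cd68 (-0.16) followed for age with 0.571 to 0.788. None of the 69 other lysosomal genes tested in BAM passed in either comparison by limma. Unadjusted, 9 and 4 of them had a p under the threshold, against 7.03% and 8.11% of all genes.

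Ly6CLow cells are myeloid cells with little surface Ly6C. Antibiotics gave 0 calls among the 37 members tested (limma, 0% of all genes). Unadjusted, 4 of the 37 had a p under the threshold, against 6.1% of all genes. Npc2 had pools at 4.53, 4.85 and 4.84 in young control against 6.09, 5.70 and 5.14 in young antibiotic mice, and 3.54, 3.92 and 4.47 against 4.83, 4.65 and 5.54 in aged mice. Its arms were separate at both ages, yet the difference of 0.29 had a limma adjusted p of 0.792. Psap (0.26), Ctss (0.25), Atp6v0d1 (0.37), Grn (0.30) and Gaa (0.45) were likewise higher without passing (0.792 to 0.844).

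For age in Ly6CLow cells, 6 of 37 members (16.2%) passed, against 7.38% of all genes: Ctsl, Cd63 and Ctsd were higher, and Gm2a, Psap and Cst3 lower, in aged pools. Ctsl was 0.759, 1.27 and 0.960 in young control and 0.721, 0.515 and 0.633 in young antibiotic pools, and 1.17, 2.36 and 1.78 in aged control and 1.52, 1.94 and 2.78 in aged antibiotic pools. Only the control arm had an overlap, and the change was 1.20 ± 0.187 (limma, adjusted p = 0.000946). Gm2a, whose level is highest in these cells, was 5.48, 5.17 and 4.40 then 5.67, 5.39 and 5.41 in the young arms, and 2.63, 2.24 and 4.00 then 3.52, 3.39 and 3.24 in the aged arms. All aged pools were below all young pools (-0.74 ± 0.125, adjusted p = 0.00164). Cd63 was 0.707, 0.707 and 0.760 then 0.651, 0.758 and 0.408 in the young arms, and 0.543, 1.57 and 1.05 then 1.56, 1.93 and 3.10 in the aged arms, with an overlap in the control arm. It differed by 1.08 ± 0.223 (0.00665) and Psap by -0.46 ± 0.0988 (0.00824). Ctsd differed by 0.91 ± 0.245 (0.0292), lost without young control 1 or 2, young antibiotic 2 or 3, aged control 2 or 3 or aged antibiotic 3 (0.0540 to 0.0807). Cst3 differed by -0.50 ± 0.144 (0.0417), lost without any pool but young control 1, aged control 3 and aged antibiotic 3 (0.0650 to 0.103). The median of all genes itself differed by -0.16 in aged Ly6CLow and by -0.38 in aged Ly6CHigh cells, and the members' medians by 0.00 and -0.12. After scaling pools to equal sums these were -0.06 and -0.14 for all genes and 0.13 and 0.18 for the members, so the sign of the Ly6CHigh member median depends on the scaling.

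These age calls did not hold in cells of at least 2000 raw UMIs, where 0 members passed by limma. The count of all genes that passed there is not given here, so this is not a result about the members alone. There Ctsl differed by 1.16 (adjusted p = 0.257), Cd63 by 1.12 (0.402) and Ctsd by 0.92 (0.506), and Gm2a by -0.36 (0.437), Psap by -0.16 (0.751) and Cst3 by -0.13 (0.848). The sizes moved with the choice of cells: between the 25th and 75th percentiles of raw UMIs, Ctsl differed by 0.09 (adjusted p = 0.994), Cd63 by 0.38 (0.976) and Ctsd by -0.06 (0.994). Gm2a differed there by -0.20 (0.967), Psap by -0.09 (0.981) and Cst3 by -0.25 (0.967), and 0 members passed. Of all genes tested 2 passed in that range, against 636 with all cells, so the loss was not particular to the members. Summed B cell markers in Ly6CLow cells were 0.297 and 0.932 in young control and antibiotic pools against 28.9 (0.686 to 44.0) and 19.97 (0.986 to 57.6) in the aged ones. Dendritic cell markers were 5.10 and 5.11 against 3.22 and 1.74. Their part in the result was not tested.

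**Figure D5:**
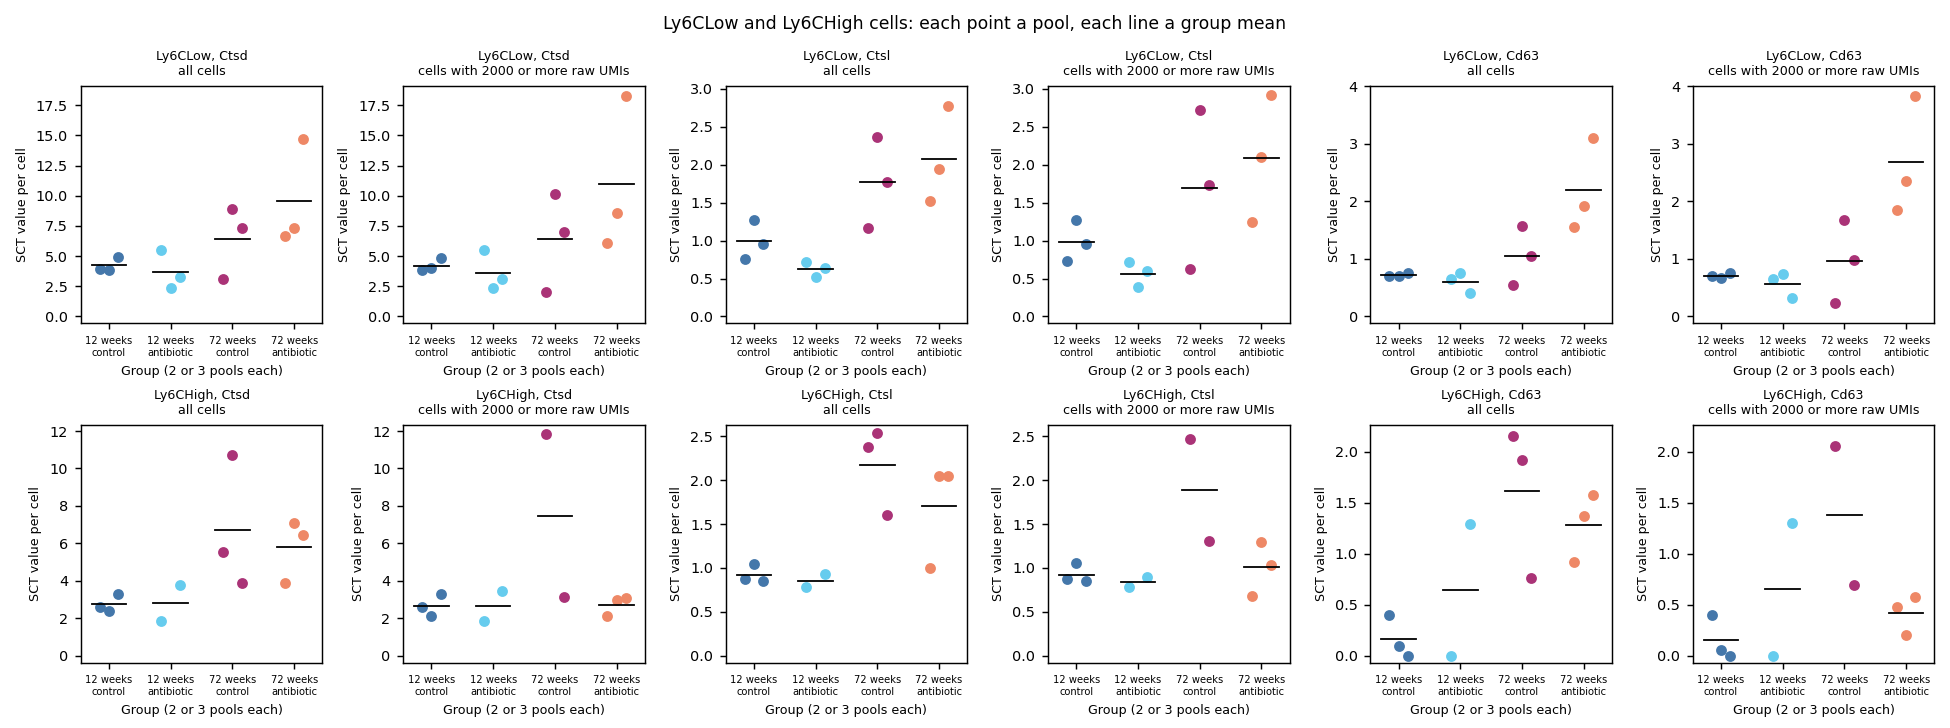
Mean SCT value per cell in each pool for Ctsd, Ctsl and Cd63, the members called for age in both Ly6CLow and Ly6CHigh cells, with all cells and with cells of at least 2000 raw UMIs; points are pools and lines group means. In Ly6CHigh cells the aged antibiotic pools have Ctsd at 3.88 to 7.11 with all cells and at 2.11 to 3.08, within the young range, once shallow cells are left out, while aged control 2 stays at 11.8.

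Ly6CHigh cells, which carry monocyte markers, gave 0 calls for antibiotics among 37 members (limma, 0% of all genes). Unadjusted, 0 members had a p under the threshold, against 3.21% of all genes. The smallest p-values were those of Ctsa (0.35), Ctsc (-0.32), Tfeb (0.62), Ctss (0.22), Atp6ap2 (0.28) and Gaa (-0.57), all with a limma adjusted p of 0.999. For age 4 of 37 members (10.8%) were higher in aged pools, against 1.25% of all genes. The fit left out young antibiotic 2, which had 6 such cells. Ctsl was 0.875, 1.05 and 0.846 with vehicle and 0.786 and 0.927 with antibiotics in young mice, against 2.38, 2.54 and 1.60 and then 1.00, 2.05 and 2.05 in aged mice, a change of 1.03 ± 0.224 (limma, adjusted p = 0.0369). Only 1 aged antibiotic pool fell within the young range. Ctsd was 2.58, 2.40 and 3.31, then 1.86 and 3.78 in young mice, and 5.53, 10.7 and 3.90, then 3.88, 7.11 and 6.44 in aged mice. These did not overlap (1.11 ± 0.249, adjusted p = 0.0384). Lgmn was 1.10, 0.700 and 1.69, then 0.929 and 1.02, against 2.84, 2.71 and 1.17, then 1.83, 3.21 and 3.58 (1.18 ± 0.271, 0.0401), and 1 aged control pool lay within the young range. Cd63 was listed at 0 in 2 of the 5 young pools and at 0.100 to 1.29 in the others, against 0.767 to 2.16 in aged pools (2.84 ± 0.650, 0.0400), so its fitted size depends on the added 0.05. Psap (-0.59, 0.0691) and Lipa (-1.11, 0.0788) were lower without passing.

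The 4 Ly6CHigh calls held in 5 to 9 of 21 alternatives. In cells of at least 2000 raw UMIs, aged control 1 also had fewer than 10 cells and was left out. There 0 members passed by limma, with Ctsl at 0.57, Ctsd at 0.64, Cd63 at 2.00 and Lgmn at 0.08 (adjusted p 0.942 to 0.981). The count of all genes that passed in those cells is not given here. Ctsl was lost without any pool but aged control 3 and aged antibiotic 1 (limma adjusted p 0.0613 to 0.167), Ctsd without any but young antibiotic 3, aged control 3 and aged antibiotic 1 (0.0574 to 0.224). Lgmn was lost without any but young control 3, aged control 3 and aged antibiotic 1 (0.0890 to 0.181), and Cd63 without any but aged control 3, aged antibiotic 1, young control 1 and young antibiotic 3 (0.0850 to 0.220). Microglial markers moved with these genes: their sum in Ly6CHigh cells was 2.95 (2.13 to 4.38) without and 2.73 (2.00 to 3.46) with antibiotics in young mice, and 7.39 (4.90 to 9.66) and 7.18 (3.96 to 10.4) in the aged ones. With at least 2000 raw UMIs the sums were 2.78, 2.56, 4.11 and 2.01. Lgmn, Ctsd and Ctsl had microglial levels 10.8, 10.1 and 5.75 times those in Ly6CHigh cells, and the part of free microglial RNA in the result was not tested. Of 67 other lysosomal genes tested in Ly6CHigh cells, 4 (5.97%) were called for age with all cells, against 1.25% of all genes. Ctsf (2.47), Cd164 (2.05) and Pla2g15 (1.93) were among them. In Ly6CLow cells 3 of 69 (4.35%) were called, below the 7.38% of all genes, and Arsb (-0.88) was among these. With at least 2000 raw UMIs, Ctsf in aged Ly6CHigh pools was at most 0.0588 and in young pools at most 0.0750, against 0.133 to 0.719 in aged pools with all cells. Cd164 was then 0.0588 to 0.346 in aged and 0 to 0.250 in young pools, and Pla2g15 0 to 0.471 and 0 to 0.250, so that the ages overlapped for all 3 genes. The Arsb pools of Ly6CLow cells also overlapped between ages, at 0.170 to 0.438 in aged and 0.286 to 0.574 in young mice.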

How the data were processed

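Per the submitters' processing notes, reads were processed with Cell Ranger 3.0.2 and Seurat 3.0.1 against mm10. The authors deposited a table of SCT values, which are UMI counts adjusted by regression and treated here as a score, and per-cell metadata with raw UMI counts, cell types and hashtags. SCT values summed to the metadata SCT total in all 13052 cells and to the raw count in 62. All cells were deposited as singlets, and 33 metadata columns were not used.

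SCT values were averaged per cell type and pool (at least 10 cells) and tested as log2(mean + 0.05) with limma 3.58.1 (R 4.3.3, trended prior variance) in 1 fit of 4 group means, over genes with a mean of at least 0.05, with Benjamini-Hochberg adjustment over all genes and a threshold of 0.05. The procedure was tested on simulated data. No count model was used, because the values are not raw counts. The members and the gene lists were chosen with earlier results of these data known. The text names every member past the threshold and, where fewer than 6 passed, those of smallest p up to 6; of the other lysosomal genes it names up to 5 per comparison with the largest change. Some of these other genes are not reported here. Alternatives varied the pseudocount (0.01, 0.5), the filter, the averaging, the scaling, the cells (25th to 75th percentile of raw UMIs, at least 20 cells per pool), the variance model, the pools in the fit, and each pool left out in turn. Restricting cells to at least 2000 raw UMIs and leaving out barcodes shared by the wells were chosen after seeing the data.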

Additional observations from a re-analysis of the deposited data

Results flagged for a closer look

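Atp6v1a in microglia stood apart because its pools moved in opposite directions at the 2 ages. At 12 weeks every antibiotic pool lay below every control pool, and at 72 weeks every antibiotic pool lay above. The difference between the antibiotic changes was 0.21 ± 0.0916 (SE) on the log2 scale, and it did not pass limma's test (adjusted p = 0.696).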

How the results depend on the processing

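Of 281 counts of called members under an alternative, 228 stayed within 1.5 times, and of 1686 single-gene values 1467 kept their direction and side of the threshold. Antibiotics in aged microglia (1 call) gave 0 with either pseudocount, no filter, equal sums, no trend or only the compared pools. They gave 2 in the middle range of UMIs (25th to 75th percentile). Over all genes (283) these settings gave 269 and 311 with pseudocounts 0.01 and 0.5, 105 with no filter and 327 with equal sums. They gave 228 with no trend, 203 with only the compared pools and 252 in the middle range. Averaged over ages (4) antibiotics gave 2 without the trend, and 368 over all genes (473). Age in control microglia (1) gave 2 with logarithms per cell, where 298 of all genes were called (233). In antibiotic microglia (6) age gave 2 with no filter, no trend or only the compared pools, where 384, 456 and 358 of all genes were called (539). Over both arms (6) it gave 13 with at least 2000 UMIs, where 1153 of all genes were called (864). BAM age (0) gave 1 with logarithms per cell, where 25 of all genes were called (13). Ly6CLow age (6) gave 0 in the middle range and with at least 2000 UMIs, and 2 without the trend. In the middle range 2 of all genes were called (636). Ly6CHigh age (4) gave 0 with pseudocount 0.01, no filter, at least 2000 UMIs, no trend or 20 cells per pool. It gave 1 in the middle range or without shared barcodes, and 9 with logarithms per cell. Of all genes (102), 795 were called with logarithms per cell and 0 without the trend. For the other settings named in the Ly6C types the counts over all genes are not given here. Ctsd in Ly6CLow cells reversed to -0.057 (adjusted p = 0.994, limma) in the middle range. The cause of these changes was not tested. Leaving out 1 pool gave 0 to 1 calls for antibiotics in aged, 0 in young and 1 to 5 in all microglia, 0 for the difference, 1 for age in control, 1 to 6 in antibiotic and 4 to 7 in all microglia, 0 in BAM, 0 for antibiotics in Ly6C types, and 4 to 6 and 0 to 6 for age in Ly6CLow and Ly6CHigh cells. Over all genes the calls ranged from 0 to 58 (12 in the reported fit) for antibiotics in young, 105 to 459 (283) in aged and 209 to 711 (473) in all microglia, and from 0 to 4 (0) for the difference. For age they ranged from 103 to 298 (233) in control, 271 to 821 (539) in antibiotic and 557 to 1153 (864) in all microglia. They ranged from 0 to 8 (5) and 5 to 25 (13) in BAM, 0 to 2 (0) and 2 to 1122 (636) in Ly6CLow, and 0 to 35 (0) and 0 to 795 (102) in Ly6CHigh cells. No paired analysis was possible because control pools carried hashtags 1 to 3 and antibiotic pools 4 to 6, and young and aged pools that share a number were different mice in different wells. Whether the few cells per pool set the counts in BAM and the Ly6C types was not tested.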

Other observations

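Cst7, the endosomal inhibitor with the largest age change among the other lysosomal genes, was followed to single microglia after its values had been seen, so what follows is a description with no test. To limit the part of depth, only cells in the 25th to 75th percentile of raw UMIs were used. Cst7 was above 0 in 68 of 2746 young and 174 of 1956 aged microglia, with 7 to 15 such cells per young pool and 18 to 45 per aged pool. Median raw UMIs per pool were 6454 to 7534.5 in young cells with Cst7 and 6719 to 6932 in those without, and 6871 to 7440 and 6957 to 7191 in aged cells.

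Cd63, Cd68 and Ctsz were higher in the cells with Cst7 in all 12 pools, and 13 further members in 10 or 11 pools. The share of all genes with such counts was not computed, so these counts do not set the members apart from other genes. No member was lower in all 12 pools, and Lgmn, Gaa, Glb1, Laptm5, Tfeb, Atp6v0d1 and Atp6v1h were higher in 6 pools or fewer. Over cells of all depths, where cells with Cst7 had more UMIs (medians 7384.5 to 8655 against 6358.5 to 7165.5 in young pools and 7908.5 to 9203 against 6410 to 7156 in aged pools), Lgmn was higher in all 12 pools. Gaa, Glb1, Laptm5 and Atp6v0d1 were then higher in 6 of 6 aged and 4 of 6 young pools. Cd63 in cells with Cst7 was 1.90 times its level in the others in young pools (median; range 1.11 to 2.08) and 1.42 times in aged pools (1.06 to 1.62). Cst7 was low in microglia, so a cell with no count of it may still express it. Among cells with no Cst7 count, Cd63 was 2.80 to 3.16 in young and 3.69 to 4.95 in aged pools. Ctsz was 10.2 to 10.99 against 11.3 to 13.1 in those cells, and Ctsb 8.57 to 8.97 against 9.12 to 10.6. For all 3 genes the aged pools lay above the young ones. Because cells with no count may express Cst7, this split cannot separate these age differences from Cst7 expression, and that was not tested.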
